A study of Mus musculus with 6 samples.

Results

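The guanylate-binding proteins (GBPs), the immunity-related GTPases (IRGs) and the IFI200 proteins form families of genes that interferons switch on. Of their genes, 10 were described here. They were taken by symbol from the gene tables of 6 libraries, and all 10 listed symbols were found among 30733. The 4 GBP genes were Gbp2, Gbp3, Gbp4 and Gbp7, the 2 IRG genes were Igtp and Irgm1, and the 4 IFI200 genes were Ifi203, Ifi204, Ifi205 and Mndal. RNA sequencing had been carried out on sorted marrow cells of wild-type mice after total body irradiation with 5 Gy, and the labels name the cells haematopoietic stem cells (HSCs), from which all blood lineages are renewed. They were sorted by MHC class II (MHCII), which displays peptides to CD4 T cells, into an MHCII-hi group of 3 libraries and an MHCII-lo group of 3 libraries. Both groups carried the same genotype and the same irradiation, and unirradiated cells were not analysed here. For the sort gates, the time since irradiation and the mice behind each library, nothing was given in the sources used here. The comparison asked how the expression profile of MHCII-hi cells differs from that of MHCII-lo cells.

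Interferons signal through their receptors and the JAK kinases to transcription factors, among them IRF1 downstream of interferon gamma and IRF9 downstream of type I interferons. GBPs and IRGs are large GTPases that assemble on the membranes of vacuoles that hold intracellular pathogens, and some IRGs hold the others inactive on the cell's own membranes. IFI200 proteins carry HIN domains that bind DNA, and several of them have been described as sensors of DNA or as regulators of transcription and the cell cycle. Interferon signalling is known to bring resting HSCs into cycle, and loss of Irgm1 in mice is known to impair HSC function.

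The interferon-stimulated response element (ISRE) is the DNA element bound by IRF factors, and its core was searched for in the promoters of the genes. The core was spelled GAAANNGAAA, or TTTCNNTTTC on the other strand, in RefSeq windows of build GRCm38.p6 that run from 250 bases before a gene's start to 50 bases after it. Of the 10 genes, 8 had a window, and all 8 held at least 1 core. Over all genes with a window, 1079 of 27025 held one, or 3.99%. Each line below gives 30 bases around a core, 5′ to 3′ on the strand of the gene, with the core or a pair of overlapping cores in capitals.
Ifi203: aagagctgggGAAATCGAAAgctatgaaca
Mndal: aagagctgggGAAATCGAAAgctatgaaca
Ifi205: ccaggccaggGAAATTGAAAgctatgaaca
Gbp2: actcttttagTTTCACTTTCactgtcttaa
Gbp3: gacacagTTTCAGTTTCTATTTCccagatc
Gbp7: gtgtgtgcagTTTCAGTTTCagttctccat
Igtp: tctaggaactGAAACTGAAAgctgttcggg
Irgm1: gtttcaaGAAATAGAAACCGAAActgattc

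The sites lie at chr1:173942508-173942537 for Ifi203, chr1:173880204-173880233 for Mndal and chr1:174031870-174031899 for Ifi205, all on the minus strand. On chromosome 3, plus strand, they lie at chr3:142620594-142620623 for Gbp2, chr3:142559992-142560021 for Gbp3 and chr3:142530273-142530302 for Gbp7. On chromosome 11 they lie at chr11:58199512-58199541 on the plus strand for Igtp and at chr11:48871428-48871457 on the minus strand for Irgm1. The Ifi203 and Mndal sites were identical over all 30 bases, and the Ifi205 site shared 23 of them in the same places. In Gbp3 and in Irgm1 a second core overlapped the first. Counted from the RefSeq start, the printed core began between positions -59 and -30 in all of these genes but Ifi205. There it began at -134, and a second core began at position 23. Starts differ between annotations. GENCODE places same-strand exons over all 150 bases before that start in Irgm1, 118 in Mndal, 61 in Gbp2, 55 in Ifi205 and 18 in Gbp3. It places none there in Ifi203, Gbp7 and Igtp. The Irgm1 site and the Gbp2 core thus lie within annotated exons. Whether the Mndal core does was not determined. Mndal had a second window, measured from another annotated start, with a core at -54. The other windows of Ifi203 and Gbp3 held none. The interferon gamma activation site core, TTCNNNGAA, which reads the same on both strands, was present in 2 of the 8 genes, Gbp7 and Igtp, against 9.55% of all genes with a window. A match of letters is a description of the sequence and does not show that a factor binds it.

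The upstream sequences of Ifi203, which had the largest difference on log2(FPKM + 1), and of a gene that did not pass the test are shown in full for 150 bases, again with the ISRE core in capitals. Ifi205 differed more than Ifi203 with a pseudocount of 0.1, without MHCII-lo replicate 1 or 2, or as a ratio of means. Without MHCII-lo replicate 2, Mndal also differed more than Ifi203 (log2 difference 1.339 against 1.31). The stretches shown are chr1:173942493-173942642 on the minus strand for Ifi203 and chr3:142530186-142530335 on the plus strand for Gbp7.
Ifi203: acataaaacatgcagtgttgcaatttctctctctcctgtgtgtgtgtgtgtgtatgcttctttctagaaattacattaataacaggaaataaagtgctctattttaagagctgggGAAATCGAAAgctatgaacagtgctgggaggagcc
Gbp7: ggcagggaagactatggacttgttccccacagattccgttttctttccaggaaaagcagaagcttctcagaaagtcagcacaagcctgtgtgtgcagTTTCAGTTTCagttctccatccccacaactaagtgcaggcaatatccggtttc

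The Ifi203 stretch and the corresponding Mndal stretch (chr1:173880188-173880337) aligned over 149 columns with 138 identical bases, 1 mismatch and 10 gap columns, an identity of 92.6%. The same core sequence, or one close to it, thus stood in the windows of genes that differed between the groups and of genes that did not pass the test.

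**Figure D1:**
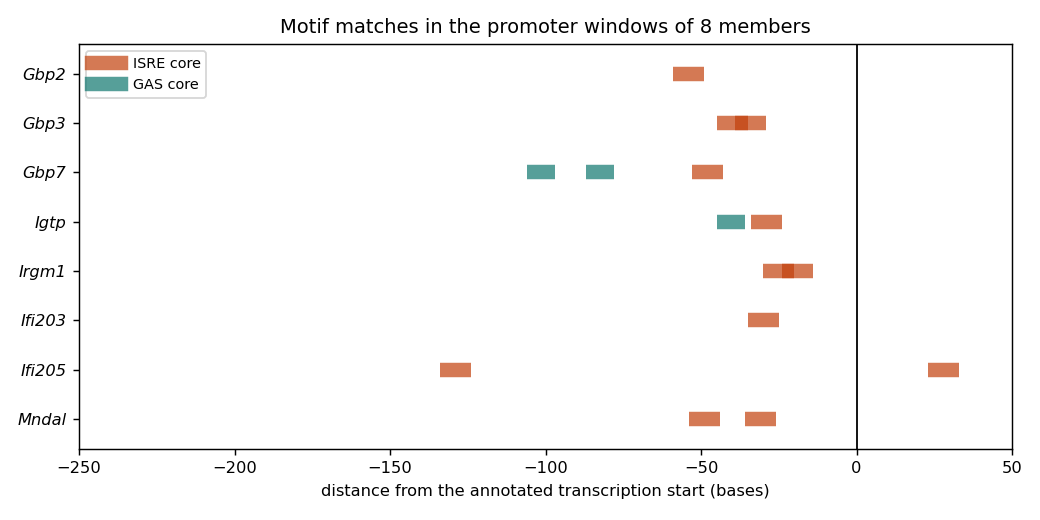
Positions of the ISRE core and of the interferon gamma activation site core in the promoter windows of the 8 genes that had one, on an axis of bases from the annotated start. Genes with more than 1 annotated start have their windows laid on 1 line, each measured from its own start. All 8 lines carry an ISRE core, and of the 8 only Gbp7 and Igtp carry the other core.

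Values are FPKM, a measure in which fragments are divided by transcript length and by library depth. It corrects for gene length and so allows levels of different genes to be set side by side. Summed FPKM was 382600 to 383658 in MHCII-hi libraries and 332354 to 333085 in MHCII-lo libraries, and immunoglobulin genes made up 23.41% to 23.69% of it in MHCII-hi and 0.4933% to 0.5019% in MHCII-lo. Depth, which the files did not state, was estimated at 2.04e+07 to 3.28e+07 fragments in MHCII-hi and 2.28e+07 to 2.43e+07 in MHCII-lo. The labels did not say that replicates came from separate mice, so the p-values speak of the spread among these libraries alone, and that spread may be technical. Log2 differences are MHCII-hi minus MHCII-lo on log2(FPKM + 1), a scale that understates the change of low genes, and a call is an adjusted p of 0.05 or less in limma (Benjamini-Hochberg over 12110 genes). FPKM is relative to a library's total. Scaling without immunoglobulin genes raised the median log2 difference over the tested genes by 0.15, and 4901 genes were then called higher and 2131 lower, in place of 3084 and 4009. Quantile normalization moved the calls the other way, to 2536 higher and 4773 lower.

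The HSC label was set against its markers first. Kit and Ly6a are not specific to the most primitive cells, and 6 of the 14 HSC marker genes, Procr, Slamf1, Mecom, Fgd5, Hoxb5 and Tek, stayed under 1 FPKM in every library. The summed level of all 14 ran from 88.6 to 93.9 FPKM in MHCII-hi and from 36.2 to 37.5 FPKM in MHCII-lo, with 7 of 8 tested markers higher in MHCII-hi. Most of the gap between these sums was Ly6a, which averaged 35.5 FPKM in MHCII-hi and 2.5 FPKM in MHCII-lo. Markers of other cells were abundant and moved with the groups. All 11 plasma cell markers were higher, with sums of 21983 to 22583 FPKM in MHCII-hi and 466 to 485 FPKM in MHCII-lo, and so were 5 of 5 tested B cell markers, with sums of 57.6 to 59.8 FPKM in MHCII-hi and 7.47 to 9.11 FPKM in MHCII-lo. Among T and NK cell markers, 11 of 12 tested were higher, with sums of 228 to 237 FPKM in MHCII-hi and 169 to 178 FPKM in MHCII-lo. Lymphoid markers were thus higher in MHCII-hi as a whole. All 8 tested dendritic cell markers were higher, at 81.8 to 91.1 FPKM in sum in MHCII-hi and 35.0 to 35.6 FPKM in MHCII-lo. Eosinophil, basophil and mast cell markers were higher in 11 of 12, at 8341 to 8509 FPKM in MHCII-hi and 3255 to 3296 FPKM in MHCII-lo, and megakaryocyte markers in 6 of 9 tested, at 64.0 to 65.9 FPKM in MHCII-hi and 38.3 to 41.7 FPKM in MHCII-lo. The lists with genes called lower in MHCII-hi and none called higher were those of the maturing neutrophil and red cell lineages. All 12 neutrophil markers were lower, at 15548 to 15942 FPKM in MHCII-hi and 37739 to 38424 FPKM in MHCII-lo. Erythroid markers were lower in 8 of 10, at 201 to 207 FPKM in MHCII-hi and 362 to 373 FPKM in MHCII-lo. Of 11 tested monocyte and macrophage markers, 6 were lower and 4 higher, at 2232 to 2305 FPKM in MHCII-hi and 3256 to 3277 FPKM in MHCII-lo. Some markers reached the minimum only through MHCII-hi. Counting those at 1 FPKM or more in both groups, 5 of 5 plasma cell, 1 of 1 B cell, 8 of 9 T and NK cell, 3 of 3 dendritic cell, 4 of 7 megakaryocyte and 6 of 7 HSC markers were higher. Over all tested genes, 25.5% were called higher and 33.1% lower. No marker of these lists was at 0 in all 6 libraries. Many of these cell types express GBP, IRG or IFI200 genes, and their part in the results below was not tested.

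Of the 10 genes, 6 were higher in MHCII-hi cells and none was called lower. These were Ifi203, Mndal and Ifi205 of the IFI200 family, both IRG genes, and Gbp2. Gbp3, Gbp7 and Ifi204 did not pass the test, and Gbp4 averaged under 1 FPKM over the libraries and was not tested. Among all 12110 genes tested, 25.5% were called higher, 33.1% lower and 58.6% in either direction, against 6 of 9 members called higher. Ifi205 reached the expression minimum only through the MHCII-hi libraries, and without it 5 of 8 genes were called. The MHCII-hi libraries all lay above the MHCII-lo libraries for 8 of the 10 genes, the untested Gbp4 among them. This arrangement was found for 29.0% of all tested genes. A log2 difference of at least 1 was reached by 3 of the 9 tested genes, Ifi203, Mndal and Ifi205, and by 4.10% of all tested genes in the same direction. The median log2 difference of the 9 tested genes was 0.38, beside -0.04 over all tested genes. In bulk samples, fewer cells of a type and less RNA per cell cannot be told apart.

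**Figure D2:**
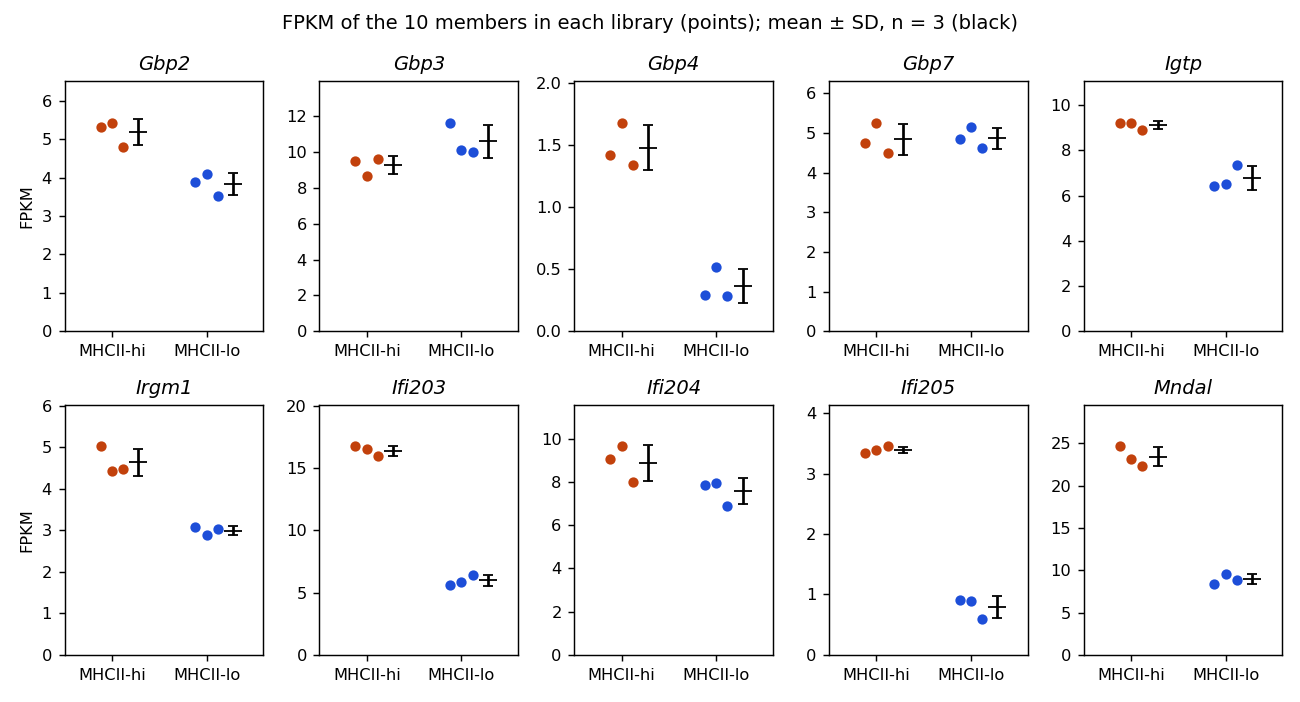
FPKM of each of the 10 genes in every library, 1 panel per gene with its own axis starting at 0, MHCII-hi left of MHCII-lo; points are libraries and bars are means with SD, n = 3 per group. The groups stand apart for 8 genes with MHCII-hi above, for Gbp3 with MHCII-hi below, and overlap for Gbp7.

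Among the tested genes, 3 of the IFI200 family had the largest differences on log2(FPKM + 1). Ifi203, a HIN-domain protein of the nucleus (chromosome 1, 173920407 to 173942672, minus strand), had 16.74, 16.55 and 15.96 FPKM in MHCII-hi libraries, against 5.62, 5.88 and 6.45 FPKM in MHCII-lo libraries. The 3 MHCII-hi libraries lay close together and all lay far above the 3 MHCII-lo libraries. The ratio of the means was 2.74, and the log2 difference was 1.32 ± 0.052 (SE), with a limma adjusted p = 2.17e-06. Mndal, a relative of the human myeloid nuclear differentiation antigen (chromosome 1, 173849126 to 173942491, minus strand), had 24.62, 23.11 and 22.36 FPKM in MHCII-hi, against 8.41, 9.56 and 8.84 FPKM in MHCII-lo. Its groups did not overlap, and it was the most abundant of the 10 genes in MHCII-hi cells. Mndal rose 2.61-fold in MHCII-hi, with a log2 difference of 1.29 ± 0.056 (SE) and a limma adjusted p = 3.42e-06.

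Ifi205, a HIN-domain protein described as a regulator of cell growth and of inflammasome genes in mouse cells (chromosome 1, 174011998 to 174031810, minus strand), had 3.34, 3.39 and 3.45 FPKM in MHCII-hi, against 0.91, 0.9 and 0.59 FPKM in MHCII-lo. All MHCII-lo libraries fell under 1 FPKM and all MHCII-hi libraries stood above 3 FPKM. The ratio of the means was 4.24, and the log2 difference was 1.29 ± 0.089 (SE), limma adjusted p = 3.28e-05; with a pseudocount of 0.1 the log2 difference was 1.98. The lowest library held an estimated 47 fragments of this gene. Ifi204, the mouse p204 protein, studied in myeloid differentiation and as a DNA sensor (chromosome 1, 173747293 to 173766943, minus strand), had 9.04, 9.64 and 8.0 FPKM in MHCII-hi, against 7.86, 7.95 and 6.87 FPKM in MHCII-lo. Every MHCII-hi library lay above every MHCII-lo library, but the lowest of one group and the highest of the other were nearly equal. Its log2 difference of 0.21 had a 95% interval of 0.02 to 0.40 before adjustment, and the limma adjusted p was 0.0583. It was called without MHCII-hi replicate 3 (limma adjusted p = 0.0226) and when libraries were scaled without immunoglobulin genes (limma adjusted p = 0.0067).

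Set against Mndal within each library, Ifi204 and Ifi203 behaved differently. The ratio of Ifi203 to Mndal FPKM averaged 0.703 ± 0.0203 for MHCII-hi libraries against 0.671 ± 0.0573 for MHCII-lo libraries (SD, n = 3 each), and the groups overlapped. The ratio of Ifi204 to Mndal was 0.367, 0.417 and 0.358 in MHCII-hi, against 0.935, 0.832 and 0.777 in MHCII-lo. Ifi204 thus stood near the level of Mndal in MHCII-lo cells and well under it in MHCII-hi cells. The ratio of Ifi205 to Mndal averaged 0.146 ± 0.00937 for MHCII-hi libraries against 0.0897 ± 0.0211 for MHCII-lo libraries, without overlap. These ratios do not depend on the scaling of a library.

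Reads of these genes could be divided between near-identical copies, and no source used here says how the authors' counting treated them. Of the 100-base stretches in each gene's transcripts, 15% in Ifi205, 10.7% in Ifi204, 6.38% in Mndal and 2.84% in Ifi203 were also found in another gene. Ifi205 and Ifi204 shared most with Ifi211, Mndal equally with Ifi211 and Ifi205, and Ifi203 with Ifi203-ps. The annotated exons of Ifi203 and Mndal overlap on the same strand over 0.552% of Ifi203's exon bases. Mndal shares 4.27% of its exon bases on that strand, with Gm38050 and Ifi203. The values of single IFI200 genes are uncertain for that reason. Ifi211, which shares the 15% of Ifi205, had 8.8 ± 0.58 FPKM in MHCII-lo, where Ifi205 had 0.8 ± 0.182 FPKM; the size of the error was not tested. With Ifi203 and Mndal summed as 1 locus, an alternative chosen after seeing the data, the log2 difference was 1.36 with a limma adjusted p = 1.12e-06.

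The 4 IFI200 genes lie in a cluster on chromosome 1 between 173350879 and 174031810 with 8 further IFI200 genes that the files list. All 12 genes of the cluster, 9 of them tested, were above MHCII-lo in every MHCII-hi library. This arrangement was found for 29.0% of all tested genes. The ratios of means ran from 1.18 for Ifi204 to 4.98 for Ifi206. Ifi208, Ifi213 and Ifi214 were below the expression minimum and were not tested.  Of the 9 cluster genes tested, 8 were called higher, all but Ifi204, beside 25.5% of all tested genes. Ifi205 and Ifi206 reached the expression minimum only through the MHCII-hi libraries, and without them 6 of 7 genes were called. The 5 tested genes of the cluster outside the 4 described were all higher, including Ifi207 at 10.2 ± 0.496 FPKM in MHCII-hi and 5.85 ± 0.261 FPKM in MHCII-lo (log2 difference 0.71, limma adjusted p = 3.65e-05). Ifi206 had 1.88 ± 0.0231 FPKM in MHCII-hi and 0.377 ± 0.0379 FPKM in MHCII-lo (limma adjusted p = 3.84e-05), and Ifi209 had 25.1 ± 0.459 FPKM in MHCII-hi and 17.1 ± 0.941 FPKM in MHCII-lo (limma adjusted p = 7.75e-05). Neighbouring genes differed in size: Ifi204, between Ifi207 and Mndal, had the smallest ratio of the cluster. Ifi202b, Mnda and Pyhin1 were not analysed here.

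**Figure D3:**
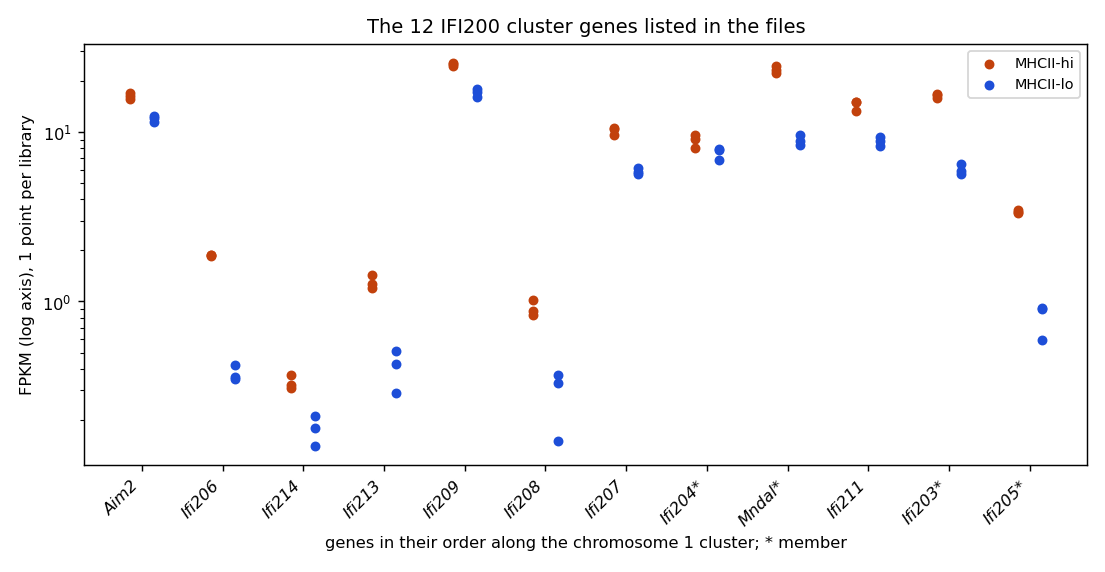
FPKM of the 12 IFI200 genes on a log axis, in their order along chromosome 1, with 1 point per library. MHCII-hi and MHCII-lo libraries are shown for each gene, and the 4 described genes are marked apart from the 8 others. The MHCII-hi points lie above the MHCII-lo points for all 12 genes. Ratios of mean FPKM, MHCII-hi over MHCII-lo, run from 1.18 for Ifi204 to 4.98 for Ifi206.

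Both IRG genes were higher in MHCII-hi cells, with smaller ratios than Ifi203, Mndal and Ifi205 and larger ones than Ifi204. Igtp, also called Irgm3, a regulatory GTPase of the endoplasmic reticulum that keeps effector IRGs inactive (chromosome 11, 58199556 to 58207591, plus strand), had 9.22, 9.20 and 8.91 FPKM in MHCII-hi, against 6.41, 6.53 and 7.37 FPKM in MHCII-lo. The lowest MHCII-hi library was above the highest MHCII-lo library. The ratio of the means was 1.35, with a log2 difference of 0.38 ± 0.055 (SE) and a limma adjusted p = 0.00109. Irgm1, the regulatory GTPase of Golgi and lysosomal membranes that also bears on autophagy (chromosome 11, 48861968 to 48871683, minus strand), had 5.02, 4.44 and 4.47 FPKM in MHCII-hi, against 3.08, 2.88 and 3.02 FPKM in MHCII-lo. Its groups did not overlap, and the MHCII-lo libraries lay within a narrow range. The ratio of the means was 1.55, with a log2 difference of 0.50 ± 0.059 (SE) and a limma adjusted p = 0.000408.

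The Irgm1 to Igtp ratio within a library averaged 0.51 ± 0.0317 for MHCII-hi against 0.444 ± 0.0354 for MHCII-lo, with the MHCII-hi libraries above by a small margin. Igtp shares 8.01% of its exon bases with Irgm2 on the same strand, and 5.16% of its 100-base stretches occur in Irgm2. Irgm2, the third regulatory IRG, had 2.23 ± 0.0361 FPKM in MHCII-hi and 1.91 ± 0.201 FPKM in MHCII-lo, and it did not pass the test (limma adjusted p = 0.103).

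Among the GBP genes, Gbp2 was higher in MHCII-hi cells, Gbp3 and Gbp7 did not pass the test, and Gbp4 was too low to be tested. Gbp2, a GBP that coats pathogen vacuoles and bacteria in mouse cells (chromosome 3, 142620602 to 142638008, plus strand), had 5.32, 5.43 and 4.81 FPKM in MHCII-hi, against 3.89, 4.09 and 3.51 FPKM in MHCII-lo. All MHCII-hi libraries were above all MHCII-lo libraries. The ratio of the means was 1.35, with a log2 difference of 0.36 ± 0.066 (SE) and a limma adjusted p = 0.00342. Gbp4, a member of the chromosome 5 GBP cluster (105115767 to 105139586, minus strand), had 1.42, 1.68 and 1.34 FPKM in MHCII-hi, against 0.29, 0.52 and 0.28 FPKM in MHCII-lo. Its groups lay far apart, with a ratio of means of 4.07, but it was below the expression minimum and has no test there; the lowest library held an estimated 30 fragments. With no expression minimum its log2 difference of 0.87 had a limma adjusted p = 0.00174. Gbp4 shares 0.814% of its exon bases with Gbp8 and Gbp9.

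Gbp3, the most abundant gene of the 10 in MHCII-lo cells and a relative of Gbp2 in the chromosome 3 cluster (142560026 to 142573209, plus strand), had 9.53, 8.69 and 9.62 FPKM in MHCII-hi, against 11.64, 10.1 and 10 FPKM in MHCII-lo. It was the only gene of the 10 whose MHCII-hi libraries all lay below the MHCII-lo libraries, an arrangement found for 36.8% of all tested genes. The log2 difference of -0.17 had a 95% interval of -0.33 to -0.01 before adjustment and a limma adjusted p = 0.0671. It was called with quantile normalization (limma adjusted p = 0.0447) and was -0.01 when libraries were scaled without immunoglobulin genes. Gbp7, linked in mouse macrophages to the defence of pathogen vacuoles (chromosome 3, 142530342 to 142550149, plus strand), had 4.76, 5.26 and 4.49 FPKM in MHCII-hi, against 4.84, 5.15 and 4.62 FPKM in MHCII-lo. These values overlapped throughout. The log2 difference was -0.01 with a 95% interval of -0.16 to 0.15 and a limma adjusted p = 0.911, and its sign turned with scaling, to 0.14 without immunoglobulin genes. A test that is missed does not show that the levels were equal. Gbp7 shares 11.3% of its exon bases with the predicted gene Gm43802 on the same strand.

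Within a library, Gbp2 stood at 0.561 ± 0.0625 of Gbp3 in MHCII-hi and at 0.363 ± 0.037 in MHCII-lo, without overlap. Gbp7 stood at 0.524 ± 0.0724 of Gbp3 in MHCII-hi and at 0.463 ± 0.047 in MHCII-lo, and these overlapped. Gbp2, Gbp3 and Gbp7 neighbour one another on chromosome 3 and each carries an ISRE core in its window, shown above, yet only Gbp2 passed the test.

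**Figure D4:**
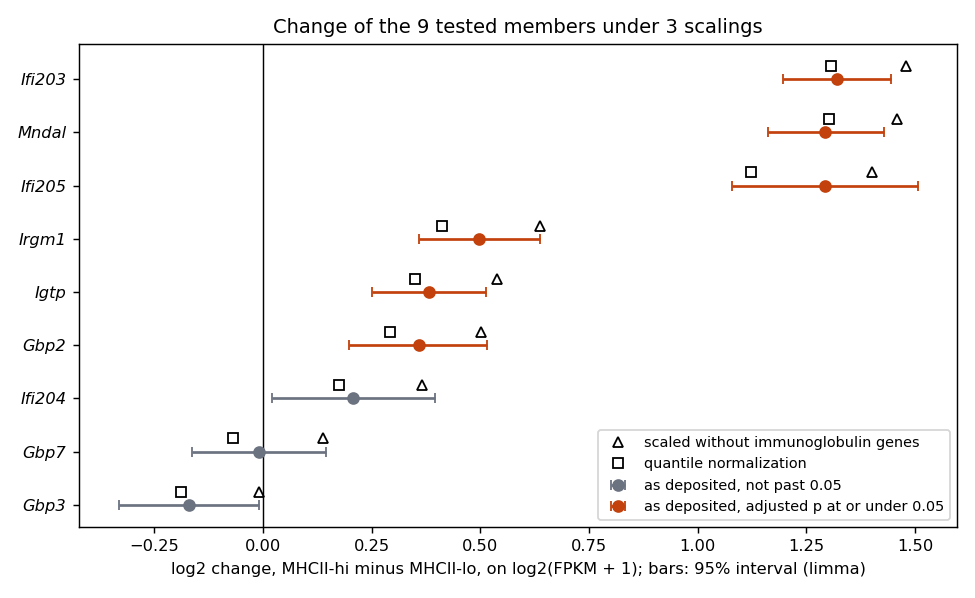
Log2 difference (MHCII-hi minus MHCII-lo, on log2(FPKM + 1)) of the 9 tested genes, with limma's 95% interval before adjustment as a bar on the values as deposited, and open symbols for quantile normalization and for scaling without immunoglobulin genes. Ifi203, Mndal and Ifi205 stand furthest right under all 3 scalings, and Gbp7 lies on either side of 0.

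In MHCII-hi cells the order of levels, in FPKM, ran from Mndal at 23.4 through Ifi203 at 16.4 to a trio of Gbp3, Igtp and Ifi204 whose libraries overlapped at 8.89 to 9.28 on average. Gbp2, Gbp7 and Irgm1 followed with overlapping libraries at means of 5.19, 4.84 and 4.64 FPKM. Ifi205 at 3.39 FPKM and Gbp4 at 1.48 FPKM closed the order, each apart from its neighbour. Gbp3 stood first and Ifi203 further down in MHCII-lo cells. In MHCII-lo cells Gbp3 at 10.6 FPKM led, followed by Mndal at 8.94 FPKM, and the libraries of these genes did not overlap. Ifi204 at 7.56, Igtp at 6.77 and Ifi203 at 5.98 FPKM came next, each overlapping the next in the order. Gbp7 at 4.87, Gbp2 at 3.83, Irgm1 at 2.99, Ifi205 at 0.80 and Gbp4 at 0.363 FPKM followed, each apart from its neighbour. Summed over the 4 IFI200 genes, the level was 49.77 to 53.74 FPKM in MHCII-hi and 22.75 to 24.29 FPKM in MHCII-lo, and over the 4 GBP genes it was 20.26 to 21.06 FPKM in MHCII-hi and 18.41 to 20.66 FPKM in MHCII-lo, where the groups overlapped.

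Among other interferon-induced GTPases, most tested genes were higher in MHCII-hi. Of 15 listed, 8 were tested, and 6 were higher and 1 lower in MHCII-hi, with a median log2 difference of 0.83. Gbp5 and Gbp9 reached the expression minimum only through the MHCII-hi libraries, and without them 4 of 6 genes were higher and 1 lower. Shares over all tested genes, 25.5% called higher and 33.1% lower, stand beside these counts and those of the lists below. Gvin1, a very large interferon-inducible GTPase, had 13.1 ± 0.197 FPKM in MHCII-hi and 5.16 ± 0.0987 FPKM in MHCII-lo (limma adjusted p = 5.15e-07), and Mx1, an antiviral GTPase, had 4.54 ± 0.132 FPKM in MHCII-hi and 1.81 ± 0.221 FPKM in MHCII-lo (limma adjusted p = 4.26e-05). Gbp9, of the chromosome 5 cluster, had 3.43 ± 0.194 FPKM in MHCII-hi and 0.990 ± 0.184 FPKM in MHCII-lo (limma adjusted p = 4.49e-05). Ifi47, an IRG, was the lower one, with 15.4 ± 0.979 FPKM in MHCII-hi and 18.1 ± 1.25 FPKM in MHCII-lo (limma adjusted p = 0.0235); its log2 difference shrank to -0.05 and it was not called when libraries were scaled without immunoglobulin genes. With quantile normalization Ifi47 was still called lower (limma adjusted p = 0.0363), and Gbp5 lost its higher call (limma adjusted p = 0.0604). Gbp2b was listed at 0 in all 6 libraries.

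Among 17 interferon receptors and signal transducers, 15 were tested, 10 were higher and 2 lower, with a median log2 difference of 0.28; without Usp18, which reached the minimum only through MHCII-hi, 9 of 14 were higher. Irf1, the transcription factor that acts downstream of interferon gamma, had 24.3 ± 0.618 FPKM in MHCII-hi and 10.9 ± 0.686 FPKM in MHCII-lo (limma adjusted p = 3.99e-06). The kinase gene Jak2 had 32.7 ± 0.554 FPKM in MHCII-hi and 21.1 ± 0.587 FPKM in MHCII-lo (limma adjusted p = 7.93e-06). Irf8, a factor of myeloid and B cells, had 28 ± 0.537 FPKM in MHCII-hi and 19.2 ± 0.33 FPKM in MHCII-lo (limma adjusted p = 1.26e-05). Both chains of the interferon gamma receptor were the lower genes, and neither was called lower when libraries were scaled without immunoglobulin genes. Ifngr1 had 91.0 ± 0.792 FPKM in MHCII-hi and 101 ± 1.81 FPKM in MHCII-lo (limma adjusted p = 0.000971), with a log2 difference of 0.02 under that scaling. Both chains were called lower with quantile normalization, where Ifngr1 had a log2 difference of -0.4 (limma adjusted p = 1.81e-05). The interferon gamma gene itself, Ifng, made by T and NK cells, had 5.2, 5.4 and 6.28 FPKM in MHCII-hi and 0.96, 2.32 and 0.94 FPKM in MHCII-lo (limma adjusted p = 0.000947), and Ifnb1 was listed at 0 in every library.

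Most cytosolic DNA sensing and inflammasome partners did not pass the test. Of 14 tested, 3 were higher, 3 lower and 8 did not pass the test, with a median log2 difference of 0.01. Irf7 had 5.59 ± 0.432 FPKM in MHCII-hi and 3.70 ± 0.419 FPKM in MHCII-lo (limma adjusted p = 0.00196). Pycard, the adaptor of inflammasomes, was lower at 10.3 ± 0.585 FPKM in MHCII-hi and 15.2 ± 1.42 FPKM in MHCII-lo (limma adjusted p = 0.000866), and Casp1 was lower at 15.4 ± 0.618 FPKM in MHCII-hi and 17.8 ± 0.777 FPKM in MHCII-lo (limma adjusted p = 0.00828). Casp1 was no longer called when libraries were scaled without immunoglobulin genes (log2 difference -0.03, limma adjusted p = 0.569), whereas Pycard was (limma adjusted p = 0.00496). Both were called lower with quantile normalization (limma adjusted p = 0.0148 for Casp1 and 0.000631 for Pycard). The DNA sensor gene Cgas did not pass the test. Cgas was at 7.67 ± 0.413 FPKM in MHCII-hi and 7.62 ± 0.172 FPKM in MHCII-lo (limma adjusted p = 0.904). The count depended on scaling. Without immunoglobulin genes, 10 were higher and 1 lower, beside 4901 higher and 2131 lower of all 12110 genes. With quantile normalization, 2 were higher and 3 lower, beside 2536 higher and 4773 lower of all 12110 genes. The 27 antiviral interferon-stimulated genes held 14 higher and 5 lower of 23 tested, or 12 higher and 5 lower of 21 without Oasl1 and Xaf1, which reached the minimum only through MHCII-hi, with Parp14 at 6.0 ± 0.182 FPKM in MHCII-hi and 3.29 ± 0.1 FPKM in MHCII-lo (limma adjusted p = 2.42e-05), and Oas3 lower at 2.76 ± 0.0252 FPKM in MHCII-hi and 5.39 ± 0.603 FPKM in MHCII-lo (limma adjusted p = 0.000154). Ddx58, which encodes the RNA sensor RIG-I, had 5.29 ± 0.278 FPKM in MHCII-hi and 3.64 ± 0.0208 FPKM in MHCII-lo (limma adjusted p = 0.000327). Scaled without immunoglobulin genes, 16 antiviral genes were higher and 2 lower, Oas3 still among the lower. Quantile normalization left 11 antiviral genes higher and 5 lower, so higher and lower calls both depended on scaling.

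**Figure D5:**
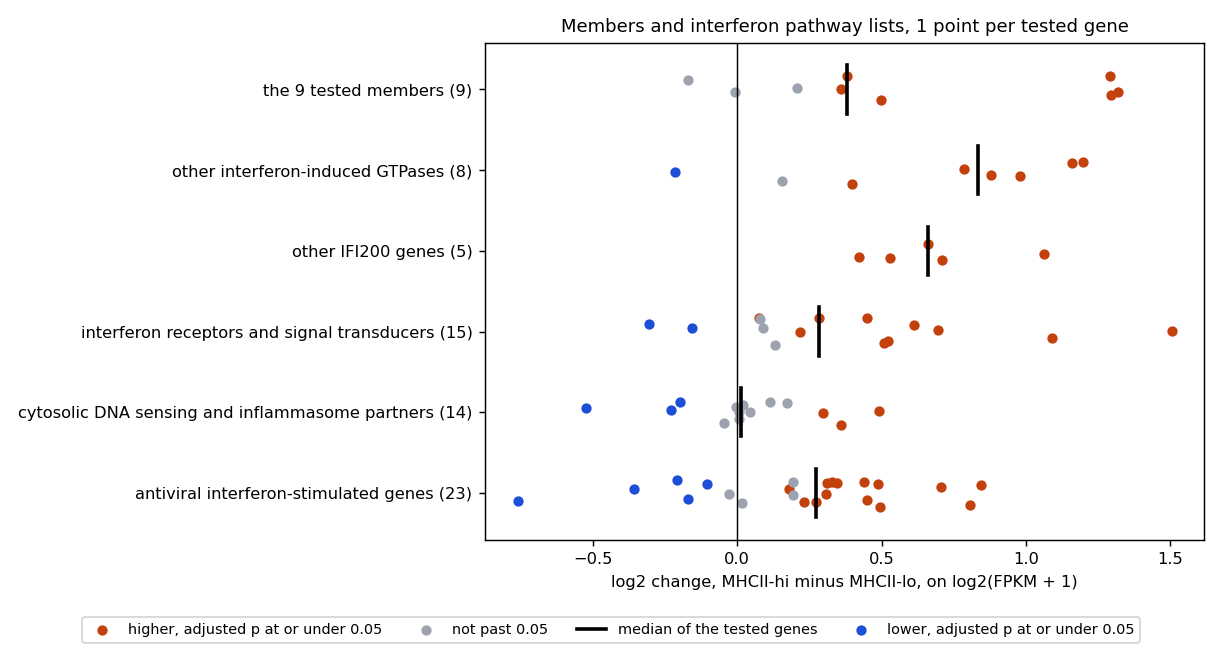
Log2 difference (MHCII-hi minus MHCII-lo) of each tested gene of the 10 described genes and of 5 interferon-related lists, 1 point per gene, with the median of each list as a bar and colours for genes called higher, called lower or not past the test. The IFI200 and GTPase lists sit mostly to the right of 0, and the DNA sensing list is centred on it.

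The genes whose values over the 6 libraries lay nearest to those of Ifi203, the gene with the largest difference on log2(FPKM + 1), were found by Euclidean distance between centred log2(FPKM + 1) values. They were Ahr, the aryl hydrocarbon receptor, at a distance of 0.0798, H2-Q4, a class I histocompatibility gene, at 0.0992, and Padi2, a peptidylarginine deiminase, at 0.103. Ahr averaged 5.99 FPKM in MHCII-hi and 1.78 FPKM in MHCII-lo. Padi2 averaged 15.5 FPKM in MHCII-hi and 5.55 FPKM in MHCII-lo.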

How the data were processed

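Stranded mRNA libraries were prepared from the RNA of sorted cells, per the labels' protocols. The tools fastp, HISAT2 and StringTie, with GRCm38 as genome build, are listed in the submitters' processing notes; their versions and settings, and the annotation, were not given in the sources used here. Each library's table was deposited with a symbol and a value per gene and a header that states no unit. The deposited values were taken as FPKM computed by the authors, since they are not whole numbers and their smallest steps scale with gene length. Because FPKM depends on a library's total, abundant transcripts press down the values of all other genes.

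Of 30803 rows, 70 were dropped because a row with the same symbol had a higher mean. A gene was tested where its mean over the 6 libraries reached 1 FPKM. The test was fitted on log2(FPKM + 1) in limma 3.58.1 (R 4.3.3), two-sided, with a variance trend and without covariates, and its p-values were adjusted by Benjamini-Hochberg across 12110 genes. Folds are ratios of mean FPKM. Gene positions and shared exons are from GENCODE M21 (GRCm38), and upstream sequences are from RefSeq (GRCm38.p6), which lacked an entry for Gbp4 and Ifi204 in the table used. Of the 11 windows of the other members, 10 held the first 20 bases of one of the gene's GENCODE transcripts.

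The estimate of depth rests on the smallest steps in genes 100 to 1000 bases long. It is rough, since 31.3% to 35.7% of low values fell within 0.1 of a whole fragment number, where evenly spread values would give 20%, and no count test was run. At that depth the median squared difference between replicates came to 1.03 to 1.30 times counting noise, with MHCII-lo replicates 2 and 3 lowest. This cannot separate different mice from repeat preparations, and the labels number the libraries individually, so each was kept as 1 replicate. The median coefficient of variation was 1.92% for MHCII-hi and 2.17% for MHCII-lo over 515 genes that averaged 100 FPKM or more. Simulated data for this comparison (12110 genes, 50 changed per size) gave calls for 50% at 1.25-fold, 78% at 1.5-fold, 94% at 2-fold and 98% at 4-fold, and 3 false calls. In the deposited values a far larger share of the 12110 tested genes, 58.6%, was called in either direction. Whether the rates and the 3 false calls carry over to the deposited values was not tested.

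The members, lists and tests were chosen with earlier results of these data known. Named are all 10 members, up to 3 genes per interferon list by smallest p, genes listed at 0, and the 3 genes nearest to the member with the largest difference on log2(FPKM + 1), Ifi203. Ifng, Ifngr1, Cgas, Irgm2, Ifi47, Gbp8, Isg15 and Trim30a were named after their values were seen. A gene of 1 list is not reported here. The alternatives comprised a replicate block; the omission of single libraries; a pseudocount of 0.1; an expression minimum of 5 FPKM or none; quantile, upper-quartile and immunoglobulin-free scaling; no variance trend; and summed rows of a shared symbol. Summing overlapping loci was chosen after seeing the data.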

Additional observations from a re-analysis of the deposited data

How the results depend on the processing

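The number of genes called among the 10 stayed between 6 and 7 under the alternatives other than the minimum of 5 FPKM, where 3 of 5 tested genes were called because fewer genes were tested. Where 7 were called, the added gene was Ifi204, Gbp4 or, with quantile normalization, Gbp3, which was called lower. Gbp4 was added where 10 genes were tested in place of 9, as on leaving out any MHCII-lo library. In those omissions Gbp4 passed the minimum only through the MHCII-hi libraries (1.34 to 1.68 FPKM, against 0.28 to 0.52 FPKM in MHCII-lo). Its added call is no separate support for a difference. Leaving out each library in turn gave 6 to 7 calls among the 10 and 6364 to 6542 over all genes. Deviations from the group means had r of -0.092, -0.004 and -0.035 between same-numbered libraries of the groups. Replicates differed by little more than counting noise, so these values cannot show whether the libraries were paired by number. With a replicate block 7 of the 10 genes and 6638 genes in all were called, the added member being Ifi204 (limma adjusted p = 0.013).

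Ifi203, Mndal, Ifi205, Irgm1, Igtp and Gbp2 kept their direction and their call in all alternatives that tested them. The log2 difference of Gbp7 ran from -0.061 to 0.034 when each library was left out, positive without MHCII-hi replicate 3 (0.034) or MHCII-lo replicate 2 (0.025), and was 0.00079 with upper-quartile scaling and 0.14 when scaled without immunoglobulin genes, with no call (limma adjusted p of 0.11 to 0.994 over its alternatives). Limma adjusted p ran from 0.0067 to 0.159 for Ifi204 and from 0.0447 to 0.921 for Gbp3. The cause of these shifts was not tested. Depth limits the lowest genes most, Gbp4 and Ifi205 in MHCII-lo, and precision rests on 3 libraries a group.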

Other observations

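The ISRE core was looked for in the windows of the other interferon lists in the same way. It was present in 5 of 6 windowed genes among other interferon-induced GTPases, 6 of 9 other IFI200 genes, 12 of 21 antiviral interferon-stimulated genes, 3 of 15 receptors and signal transducers and 0 of 11 DNA sensing and inflammasome partners, beside 3.99% of all genes. Among the antiviral genes with a core, Oas3 and Trim30a were called lower in MHCII-hi, with log2 differences of -0.76 and -0.21 (limma adjusted p = 0.000154 and 0.00521), while Isg15 was higher at 4.72 ± 0.64 FPKM in MHCII-hi and 2.19 ± 0.356 FPKM in MHCII-lo (limma adjusted p = 0.00076). Trim30a lost its call when libraries were scaled without immunoglobulin genes (limma adjusted p = 0.467) and kept it with quantile normalization (limma adjusted p = 0.00919).

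Gbp8, a neighbour of Gbp4 on chromosome 5, was below the expression minimum like Gbp4 and had 1.59 ± 0.233 FPKM in MHCII-hi and 0.333 ± 0.12 FPKM in MHCII-lo. Gbp4, Gbp8 and Gbp9 summed as 1 locus, an alternative chosen after seeing the data, had a log2 difference of 1.48 (limma adjusted p = 5.12e-06). Gbp4 shares only 0.814% of its exon bases with Gbp8 and Gbp9, and Gbp9 reached the minimum only through the MHCII-hi libraries. The sum is therefore no separate support for a difference of Gbp4.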
